A study of Homo sapiens with 26 samples.

Results

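The 9 genes described here are targets of the transcription factor NRF2 (encoded by NFE2L2), chosen by name from the 63086 genes listed in each count file: HMOX1, NQO1, GCLM, GCLC, TXNRD1, SRXN1, OSGIN1, ME1 and KEAP1. RNA was sequenced from HCT116 cells, a human colorectal carcinoma line that here carries Tet-OsTIR1. In the engineered cells IGF2BP2 and IGF2BP3 had been targeted with CRISPR in a single-cell clone, and mCherry-IGF2BP1 was delivered by lentivirus under the hPGK promoter. The WT population expressed wild-type mCherry-IGF2BP1. The S181E and Y396E populations carried phosphomimetic exchanges to glutamate, of a serine in the first and a tyrosine in the second disordered linker of this RNA-binding protein. In the RQ population the arginines of the first linker were exchanged for glutamine. Each population was sorted through a narrow mCherry gate and is not a clone. Cells received 500 µM sodium arsenite for 2 h or were left as control, with 3 libraries per population and treatment from separately grown dishes. Non-engineered parental HCT116 cells, which keep IGF2BP2 and IGF2BP3, gave 1 library per treatment. Since each construct was represented by 1 sorted population, the tests measure the spread between dishes, and a difference between constructs and a difference between the sorted populations cannot be told apart.

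NRF2 is held in the cytoplasm by KEAP1, which passes it to a CUL3 and RBX1 ubiquitin ligase for degradation. Oxidants and thiol-reactive compounds such as arsenite modify cysteines of KEAP1, NRF2 then accumulates, pairs with a small MAF protein (MAFF, MAFG or MAFK) and binds antioxidant response elements, which BACH1 can occupy as a repressor. Among the targets, HMOX1 degrades heme, NQO1 reduces quinones, GCLC and GCLM form the ligase that starts glutathione synthesis, TXNRD1 reduces thioredoxin, SRXN1 restores oxidised peroxiredoxins, ME1 makes NADPH, OSGIN1 encodes a growth inhibitor induced by oxidative stress, and KEAP1 is the sensor itself.

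The core of the antioxidant response element, TGACNNNGC, was searched on both strands in the RefSeq promoter windows of GRCh38.p14, which run from 250 bases before to 50 bases after each annotated start. It was present in 4687 of 35116 promoters (13.3%), in 5 of the 10 windows that matched a member and in 4 of the 8 members matched. The following stretches, with the motif in capitals and written so that the motif reads as above, show where the 4 members carry it. Distances run from the start to the motif base farthest from it, and for each it is said whether TGAC comes first along the gene's strand (with the gene) or along the other strand (against the gene).
GCLM, chr1:93909446-93909474, gene on the minus strand, motif against the gene, 34 bases before the start: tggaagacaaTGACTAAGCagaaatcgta
ME1, chr6:83431170-83431198, gene on the minus strand, motif with the gene, 137 bases before the start: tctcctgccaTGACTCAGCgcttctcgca
KEAP1, chr19:10502784-10502812, gene on the minus strand, motif against the gene, 31 bases before the start: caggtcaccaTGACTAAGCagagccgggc
TXNRD1, chr12:104286920-104286948, gene on the plus strand, motif against the gene, 102 bases before a downstream start: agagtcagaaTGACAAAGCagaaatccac
TXNRD1, chr12:104215670-104215698, gene on the plus strand, motif with the gene, 99 bases before the upstream start: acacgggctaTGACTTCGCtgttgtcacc
The upstream TXNRD1 window, the KEAP1 window and the ME1 window each held 1 further copy. The windows of NQO1, GCLC, SRXN1 and OSGIN1 did not hold these letters. The AP-1 site TGANTCA, searched in the same way, was present in 7.71% of promoters and in 2 members. In ME1 it overlaps the element printed above, and in OSGIN1 its farthest base lay 97 bases before the start.
OSGIN1, chr16:83953133-83953159, gene on the plus strand: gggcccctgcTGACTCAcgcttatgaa
A match describes the letters only and was not tested as a binding site.

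Total counts ranged from 22508145 to 50834401 over the 26 libraries. IGF2BP1 mRNA was 10.6 to 48.0 CPM (counts scaled by library size and TMM) in the engineered libraries and 0.348 to 0.646 CPM in the parental ones. Over both treatments it was 10.6 to 30.1 CPM in WT and 17.4 to 44.1 CPM in S181E. In Y396E it was 15.3 to 44.75 CPM and in RQ 12.2 to 48.0 CPM. The part of these levels in the differences between populations was not tested. IGF2BP2 mRNA was 62.4 to 91.4 CPM against 121 to 151 CPM, and IGF2BP3 mRNA was 109 to 166 CPM against 92.4 to 110 CPM, which does not check an edit that leaves the mRNA in place. The epithelial genes EPCAM, CDH1, KRT8, KRT18 and KRT19 were expressed in every library and CDX1 was at most 0.0873 CPM. Of 7 markers of blood, fibroblasts and endothelium, COL1A1 reached 11.5 CPM and the other 6 stayed at or below 0.752 CPM. Mitochondrial transcripts took 21.1% to 27.9% of counts in WT and RQ control libraries, 11.7% to 17.1% in S181E and Y396E control libraries, and 7.55% to 13.5% in the arsenite libraries of the 4 populations. Their part in the results was not tested. The third Y396E arsenite library stood apart, with 13897 genes counted at least once against 20850 or more in each other library, and where leaving it out changed a member's call or moved a called value by over 1.5 times, both values are given.

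Of the 9 genes, 8 passed the filter of more than 10 CPM in at least 12 of the 24 engineered libraries (for the filter, CPM over protein-coding totals and without TMM) and were tested among 9099 protein-coding genes. OSGIN1 passed through its arsenite libraries and the S181E and Y396E controls, since on that unscaled measure 1 of the 6 WT and RQ control libraries exceeded the minimum, so its rise in WT and RQ was tied to its passing. SRXN1 failed, and is described separately. A gene was called where edgeR's quasi-likelihood test gave a Benjamini-Hochberg adjusted p under 0.05 and the fold change was above 1.2, that is 0.263 on the log2 scale.

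Levels of different genes were compared per kilobase of exon from which reads could be assigned. In WT control cells NQO1 was at 100.1 ± 6.35 CPM per kb (SD, n = 3) and TXNRD1 at 88.1 ± 1.91 CPM per kb. KEAP1 followed at 39.4 ± 1.10 CPM per kb, and ME1 and HMOX1 lay beside each other at 14.1 ± 0.926 and 13.7 ± 1.30 CPM per kb. The glutathione ligase subunits were nearly level, GCLC at 8.98 ± 0.192 and GCLM at 8.77 ± 0.732 CPM per kb. OSGIN1 was lowest of the 8 tested members, at 3.97 ± 0.254 CPM per kb. With arsenite, the order at the top stayed NQO1 (131.9 ± 1.58 CPM per kb) before TXNRD1 (55.7 ± 0.608 CPM per kb), while OSGIN1 reached 9.42 ± 0.417 CPM per kb, beside GCLM at 9.23 ± 0.621.

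**Figure D1:**
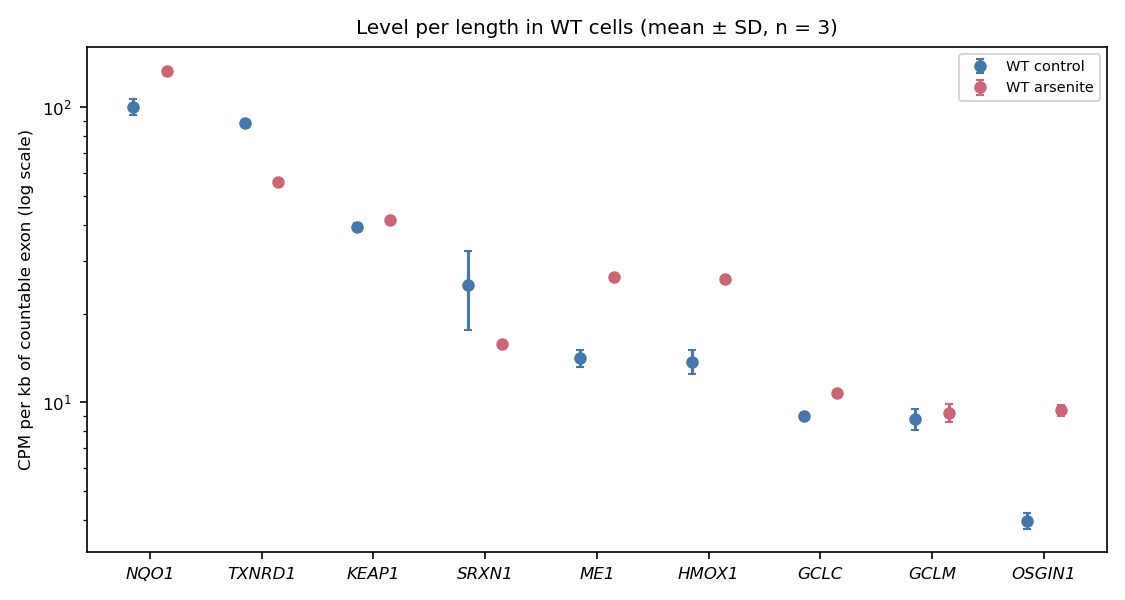
Level per length of the 9 genes in WT cells, as CPM per kb of countable exon on a log axis, with points for the mean and bars for the SD of 3 libraries, control in blue and arsenite in red. NQO1 and TXNRD1 stand highest in control cells at 100.1 and 88.1 CPM per kb and OSGIN1 lowest at 3.97, and HMOX1, ME1 and OSGIN1 move up with arsenite while TXNRD1 moves down.

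The first comparison asked how each gene responded to 2 h of arsenite within each population. HMOX1, OSGIN1 and ME1 rose in the 4 engineered populations, TXNRD1 fell in all 4, and NQO1 rose in WT and RQ. GCLC rose in RQ, KEAP1 fell in Y396E, and GCLM was called in no population. In WT, 4 of the 8 tested members were called higher and 1 lower, where 36.3% of all tested genes were called higher and 35.9% lower. In RQ, 5 were higher and 1 lower (37.1% and 35.8% of all genes), in S181E 3 and 1 (32% and 33.3%) and in Y396E 3 and 2 (32.9% and 32.9%). The WT and RQ counts include OSGIN1, whose rise there was tied to its passing the filter. The members' median log2 fold changes for WT, RQ, S181E and Y396E were 0.33, 0.36, 0.08 and 0.17, against -0.01, -0.01, -0.03 and -0.03 over all tested genes. Of the genes called, 50.3% were higher in WT and 50.9% in RQ, which became 61.6% and 62% when libraries were scaled by their totals. That scaling moved the median of all genes to 0.15 in WT and 0.16 in RQ and turned no member's called direction.

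HMOX1 (ENSG00000100292.18, chr22:35381096-35394207, plus strand) stood at 22.5, 19.0 and 22.5 CPM in the WT control libraries and at 40.7, 39.9 and 41.2 CPM with arsenite. In S181E it went from 22.1, 20.9 and 21.2 CPM to 43.1, 42.9 and 42.3 CPM, and in RQ from 21.8, 18.7 and 19.7 CPM to 42.3, 38.4 and 41.2 CPM. The treated and control libraries did not overlap in any of these populations. In Y396E the controls were at 20.6, 20.7 and 22.6 CPM and the arsenite libraries at 43.5, 43.4 and 63.4 CPM, the highest value being that of the library with few genes. The log2 fold changes of WT, S181E, Y396E and RQ were 0.92 ± 0.105 (SE), 1.00 ± 0.105, 1.23 ± 0.105 and 1.02 ± 0.106, with adjusted p of 1.54e-08, 5.78e-09, 1.24e-10 and 3.37e-09 by edgeR's quasi-likelihood test. Without the third arsenite library the Y396E value was 1.03 ± 0.0687.

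OSGIN1 (ENSG00000140961.14, chr16:83949067-83966332, plus strand), the growth inhibitor, had the largest log2 fold change among the members in WT, S181E and RQ. Its WT libraries stood at 10.3, 9.38 and 10.6 CPM in control and 25.1, 23.1 and 23.7 CPM with arsenite, a log2 fold change of 1.24 ± 0.0964 (adjusted p = 1.52e-11). RQ gave 7.91, 9.93 and 10.5 CPM in control and 23.1, 23.7 and 21.8 CPM with arsenite, a log2 fold change of 1.28 ± 0.0978. The treated libraries lay well above the controls in both populations, where the rise of OSGIN1 was tied to its passing the filter. S181E began higher, at 17.0, 15.9 and 16.4 CPM, and reached 38.4, 31.4 and 34.5 CPM, with a log2 fold change of 1.08 ± 0.092. Y396E also began higher, at 19.7, 18.6 and 18.1 CPM, and reached 37.7, 36.8 and 43.3 CPM, with a log2 fold change of 1.06 ± 0.0909. Without the third arsenite library the Y396E value was 0.99 ± 0.0829.

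ME1 (ENSG00000065833.9, chr6:83210402-83431051, minus strand), which supplies NADPH, was at 49.5, 43.7 and 48.3 CPM in WT control and 89.6, 90.0 and 86.2 CPM with arsenite, a log2 fold change of 0.91 ± 0.0698 (adjusted p = 1.26e-11). In RQ it rose from 49.9, 43.97 and 50.1 CPM to 83.5, 86.8 and 89.0 CPM, by 0.85 ± 0.07. The rise was 0.64 ± 0.0697 in S181E, from 50.9, 51.4 and 46.9 CPM to 78.3, 76.2 and 78.1 CPM. It was 0.54 ± 0.0697 in Y396E, from 42.7, 49.9 and 51.2 CPM to 71.7, 74.3 and 63.4 CPM. Control levels of the 4 populations overlapped, and arsenite levels in S181E and Y396E lay below those of WT and RQ in every library.

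NQO1 (ENSG00000181019.13, chr16:69706996-69726668, minus strand) stood at 298, 264 and 291 CPM in WT control and 370, 377 and 378 CPM with arsenite. The log2 fold change was 0.40 ± 0.0484 in WT (adjusted p = 5.01e-08) and 0.46 ± 0.0485 in RQ (adjusted p = 4.25e-09). In S181E, at 376, 377 and 378 CPM in control and 444, 461 and 435 CPM with arsenite, it was 0.24 ± 0.0482, past the adjusted p (7.09e-05) and under the fold threshold. In Y396E it was 0.17 ± 0.0481 (adjusted p = 0.0026), also under the fold threshold. The treated libraries were above the controls in each population. The S181E value passed the fold threshold at 0.29 with scaling by library totals.

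The subunits of glutamate-cysteine ligase had smaller fold changes. GCLC (ENSG00000001084.13, chr6:53497341-53548206, minus strand), the catalytic subunit, went from 56.4, 56.3 and 58.5 CPM to 69.8, 66.6 and 69.0 CPM in WT, a log2 fold change of 0.2625 ± 0.0852 (adjusted p = 0.0069) just under the fold threshold. In RQ it was 0.2702 ± 0.0858 (adjusted p = 0.0058), just above it, and this call was lost with DESeq2 at 0.26 and without the first RQ arsenite library (0.25) or the second RQ control library (0.23). The WT value was called without the second WT arsenite library or the third WT control library (0.28 in both), so GCLC sits at the threshold in both populations. S181E gave -0.08 ± 0.0845 (adjusted p = 0.40), with 68.7, 74.5 and 77.3 CPM in control and 67.7, 67.8 and 73.0 CPM with arsenite. Y396E gave 0.17 ± 0.0841 (adjusted p = 0.066), and its arsenite libraries were at 66.8, 68.9 and 94.1 CPM, and the value was -0.0015 ± 0.0566 without the third. GCLM (ENSG00000023909.10, chr1:93885199-93909456, minus strand), the modifier subunit, was called in no population, with log2 fold changes from -0.11 in S181E to 0.15 in RQ. In WT it stood at 43.96, 39.1 and 46.1 CPM in control and 42.2, 48.2 and 45.6 CPM with arsenite, and the groups overlapped.

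TXNRD1 (ENSG00000198431.18, chr12:104215779-104350307, plus strand), whose product keeps thioredoxin reduced, was the member that fell furthest among those tested. In WT it stood at 451, 441 and 461 CPM in control and 286, 288 and 282 CPM with arsenite, a log2 fold change of -0.66 ± 0.0422 (adjusted p = 3.86e-13). RQ went from 492, 513 and 521 CPM to 301, 314 and 325 CPM, with a log2 fold change of -0.70 ± 0.0422. S181E and Y396E began from higher control levels. S181E went from 725, 759 and 719 CPM to 402, 406 and 397 CPM (-0.87 ± 0.0421), and Y396E from 666, 723 and 710 CPM to 385, 397 and 365 CPM (-0.87 ± 0.0421). No control library overlapped an arsenite library in its population.

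KEAP1 (ENSG00000079999.14, chr19:10486125-10503356, minus strand), the sensor, was at 108, 106 and 112 CPM in WT control and 117, 111 and 115 CPM with arsenite, and the groups overlapped (log2 fold change 0.07 ± 0.0527, adjusted p = 0.23). RQ gave 0.12 ± 0.0532. In S181E it went from 136, 134 and 141 CPM to 125, 114 and 115 CPM, a log2 fold change of -0.22 ± 0.0525 (adjusted p = 0.00068) under the fold threshold. In Y396E it went from 135, 131 and 138 CPM to 119, 111 and 102 CPM, and the log2 fold change of -0.29 ± 0.0524 (adjusted p = 2.67e-05) was called. That call was lost at -0.23 without the third Y396E arsenite library and at -0.23 with scaling by library totals.

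**Figure D2:**
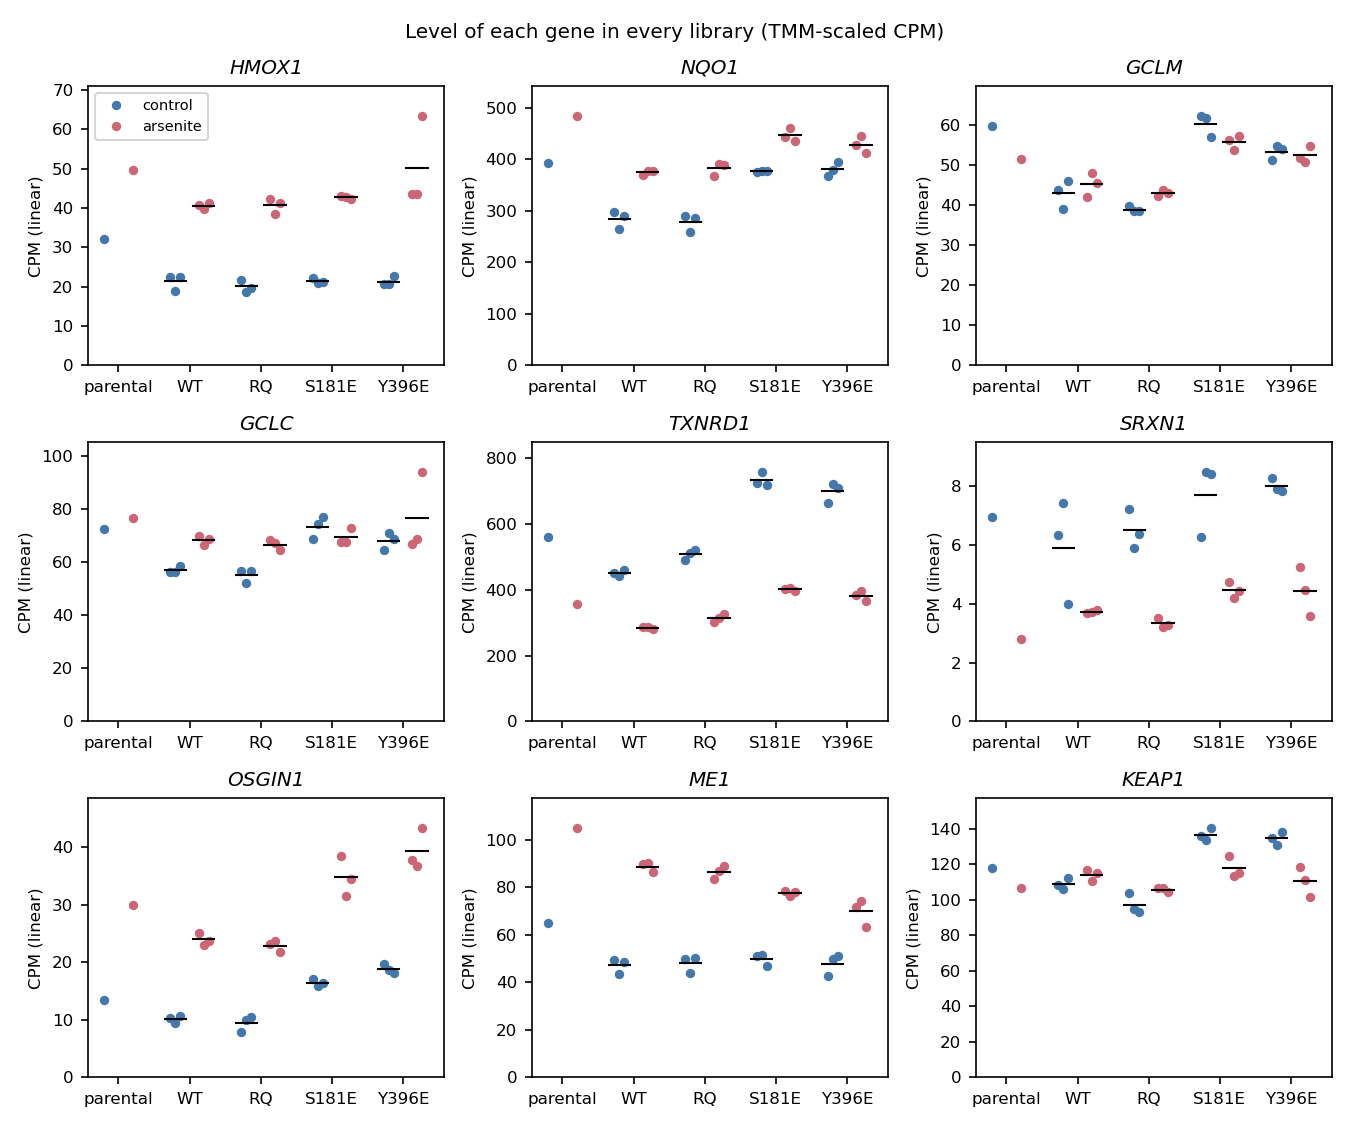
CPM of the 9 genes on linear axes that start at 0, with 1 point per library, control in blue, arsenite in red, a black line at the mean of 3 and single points for the parental pair. The arsenite points of HMOX1, OSGIN1 and ME1 lie above the control points in each population and those of TXNRD1 below, and the third Y396E arsenite library stands high for HMOX1 (63.4 CPM) and GCLC (94.1 CPM).

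**Figure D3:**
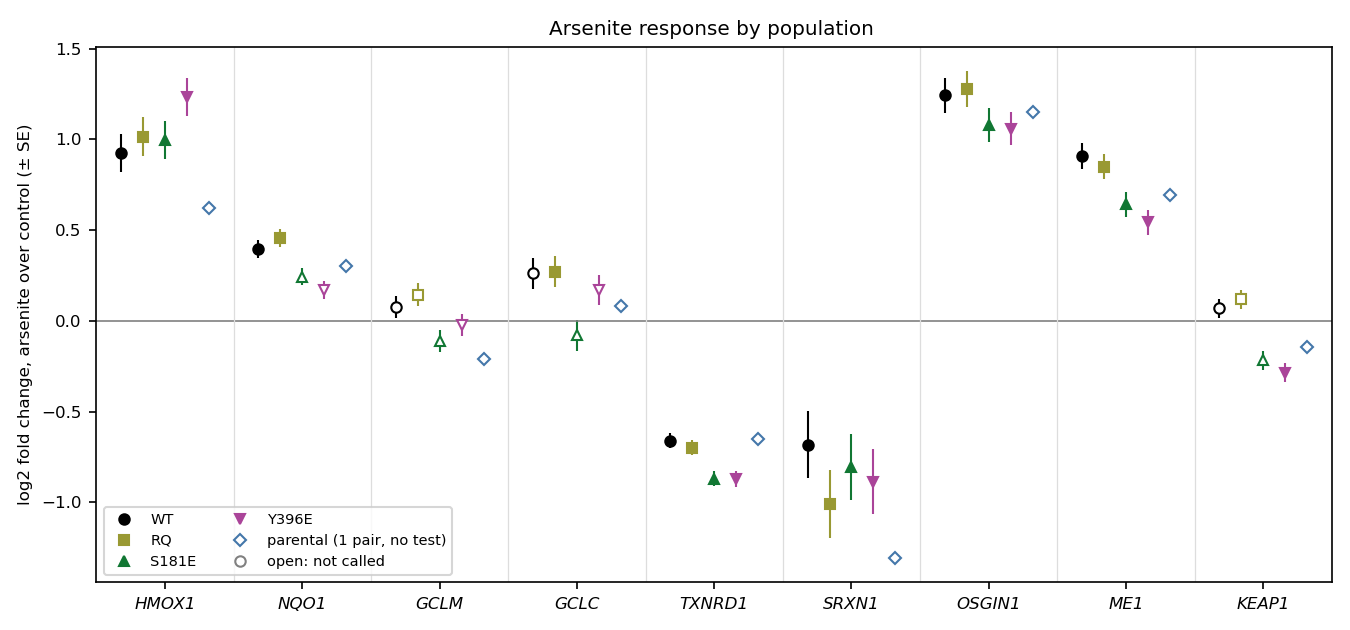
Log2 fold change of arsenite over control with its SE for each gene and population, filled where called, and the parental ratio as an open diamond without an error. HMOX1, OSGIN1 and ME1 lie above 0 and TXNRD1 below 0 in the 4 populations, and the SRXN1 values come from the fit without the CPM filter.

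SRXN1 (ENSG00000271303.2, chr20:646615-653200, minus strand) could be read only through a small window. Of its 2528 exon bases, 2292 (90.7%) are shared on the same strand with a readthrough gene, ENSG00000270299.1, and reads on shared exons were not assigned, which left 236 bases. Its counts were 77 to 311 per library, so values describe this stretch and not the whole transcript. WT controls stood at 6.33, 7.42 and 3.99 CPM and WT arsenite libraries at 3.70, 3.72 and 3.79 CPM. Without the CPM filter (16590 genes tested), SRXN1 was called lower in WT at -0.68 ± 0.186 (adjusted p = 0.0021), S181E at -0.81 ± 0.183, Y396E at -0.89 ± 0.181 and RQ at -1.01 ± 0.189, where 23.5%, 20.9%, 22.5% and 24% of genes were called lower. In control cells S181E and Y396E differed from WT by 0.38 ± 0.18 and 0.43 ± 0.18, with adjusted p of 0.12 and 0.083. These values turned on single libraries. They ran from 0.17 to 0.56 and from 0.22 to 0.61 when 1 library was left out, and both were called without the second WT control library (adjusted p of 0.041 and 0.029) and without the third Y396E arsenite library (0.0075 and 0.0028). Both were also called with library totals (0.015 and 0.013) and with the compared groups alone (0.03 and 0.007), so no direction is given here.

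The second comparison set the resting level of these genes in each mutant population against that in the WT population. The single parental control library, which entered no test, was also above the WT control mean for each member, at 1.08 (KEAP1) to 1.51 (HMOX1) times it. Control cells of S181E and Y396E held more TXNRD1, OSGIN1, GCLM, NQO1 and KEAP1 mRNA than WT control cells, and S181E also held more GCLC. HMOX1 and ME1 were not called in either, and in RQ no member was called. In S181E 6 of the 8 members were called higher and 0 lower, where 15.7% of all tested genes were called higher and 15.4% lower. In Y396E 5 were higher and 0 lower, against 14.5% and 14.2% of all genes. These counts and the medians below include OSGIN1. It exceeded the filter's minimum in 1 of the 6 WT and RQ control libraries and in 12 arsenite libraries. The median log2 difference of the members was 0.39 in S181E and 0.31 in Y396E, against 0.02 and 0.01 over all genes. Both comparisons share the WT control libraries, so their values stand side by side without being independent. Mitochondrial shares differed between the same groups, and their part in these calls was not tested. With library totals that leave out mitochondrial transcripts, a setting added after seeing the data, 6 members were called in each. With totals of all counts the share of calls that were higher became 83.6% in S181E (50.4% with TMM) and 81.1% in Y396E (50.5%), the median of all genes moved to 0.18 and 0.14, and 6 members were again called in each. The share of all genes called with either kind of totals is not given here, so these member counts are not set against it.

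TXNRD1 showed the tightest separation, with 725, 759 and 719 CPM in S181E and 666, 723 and 710 CPM in Y396E control cells against 451, 441 and 461 CPM in WT. The log2 differences were 0.70 ± 0.042 (adjusted p = 2.59e-12) and 0.63 ± 0.042 (adjusted p = 1.63e-11). In RQ the value was 0.17 ± 0.0419 with an adjusted p of 0.026, under the fold threshold, and its libraries lay between those of WT and the phosphomimetic populations.

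OSGIN1 was 0.70 ± 0.0979 higher in S181E (adjusted p = 3.03e-06) and 0.90 ± 0.098 higher in Y396E (adjusted p = 9.05e-08) on the log2 scale. Its highest WT control library, at 10.6 CPM, lay below the lowest S181E library at 15.9 CPM. NQO1 was higher by 0.41 ± 0.0484 in S181E and 0.42 ± 0.0485 in Y396E, with adjusted p of 2.98e-07 and 2.06e-07. The Y396E controls were at 369, 380 and 394 CPM and did not overlap the WT controls.

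GCLM stood at 62.4, 61.8 and 57.2 CPM in S181E and 51.3, 54.9 and 54.1 CPM in Y396E, above the WT range of 39.1 to 46.1 CPM. The log2 differences were 0.49 ± 0.0612 (adjusted p = 6.86e-07) and 0.31 ± 0.0616 (adjusted p = 0.00026). The Y396E value fell to 0.25, under the fold threshold, without the second WT control library. GCLC was called in S181E (0.37 ± 0.0852, adjusted p = 0.0011), and in Y396E, at 64.6, 70.9 and 68.6 CPM, it missed the fold threshold with 0.25 ± 0.0857 (adjusted p = 0.019), which it passed without the first Y396E control library (0.29) or the third WT control library (0.27). KEAP1 was higher by 0.33 ± 0.0527 in S181E (adjusted p = 1.94e-05) and by 0.31 ± 0.0528 in Y396E (adjusted p = 5.07e-05). The controls of these populations, from 131 to 141 CPM, stood clear of the 106 to 112 CPM of WT.

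HMOX1 gave log2 differences of 0.0017 ± 0.108 in S181E and -0.0036 ± 0.109 in Y396E, and ME1 gave 0.07 ± 0.0708 and 0.02 ± 0.0712, with overlapping libraries. In RQ control cells no member was called by edgeR or DESeq2. Of the 8 members 3 had an unadjusted p under 0.05 and TXNRD1 alone an adjusted p under it. An unadjusted p under 0.05 was found for 1285 of the 9099 tested genes. Over all genes 1% were called higher and 0.429% lower in RQ, 130 by edgeR and 178 by DESeq2. The RQ log2 differences of the 8 members ran from -0.16 (KEAP1) to 0.17 (TXNRD1). Of the RQ calls 70% were higher, and 38.3% with library totals.

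Ordered by their mean control level, S181E and Y396E held the first 2 places for NQO1, GCLM, GCLC, TXNRD1, OSGIN1 and KEAP1. The step from the second to the third population was called for NQO1, GCLM, TXNRD1, OSGIN1 and KEAP1, and not for GCLC (adjusted p = 0.019). Between S181E and Y396E no gene of the 9099 was called by edgeR in control cells (0%), where 289 had an unadjusted p under 0.05 and DESeq2 called 1, and 2 members, GCLM (-0.18 ± 0.0607) and OSGIN1 (0.20 ± 0.0938), had an unadjusted p under it. Set against RQ in place of WT, 6 members were higher in S181E and 6 in Y396E, where 39.6% and 37.4% of genes were called in either direction.

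**Figure D4:**
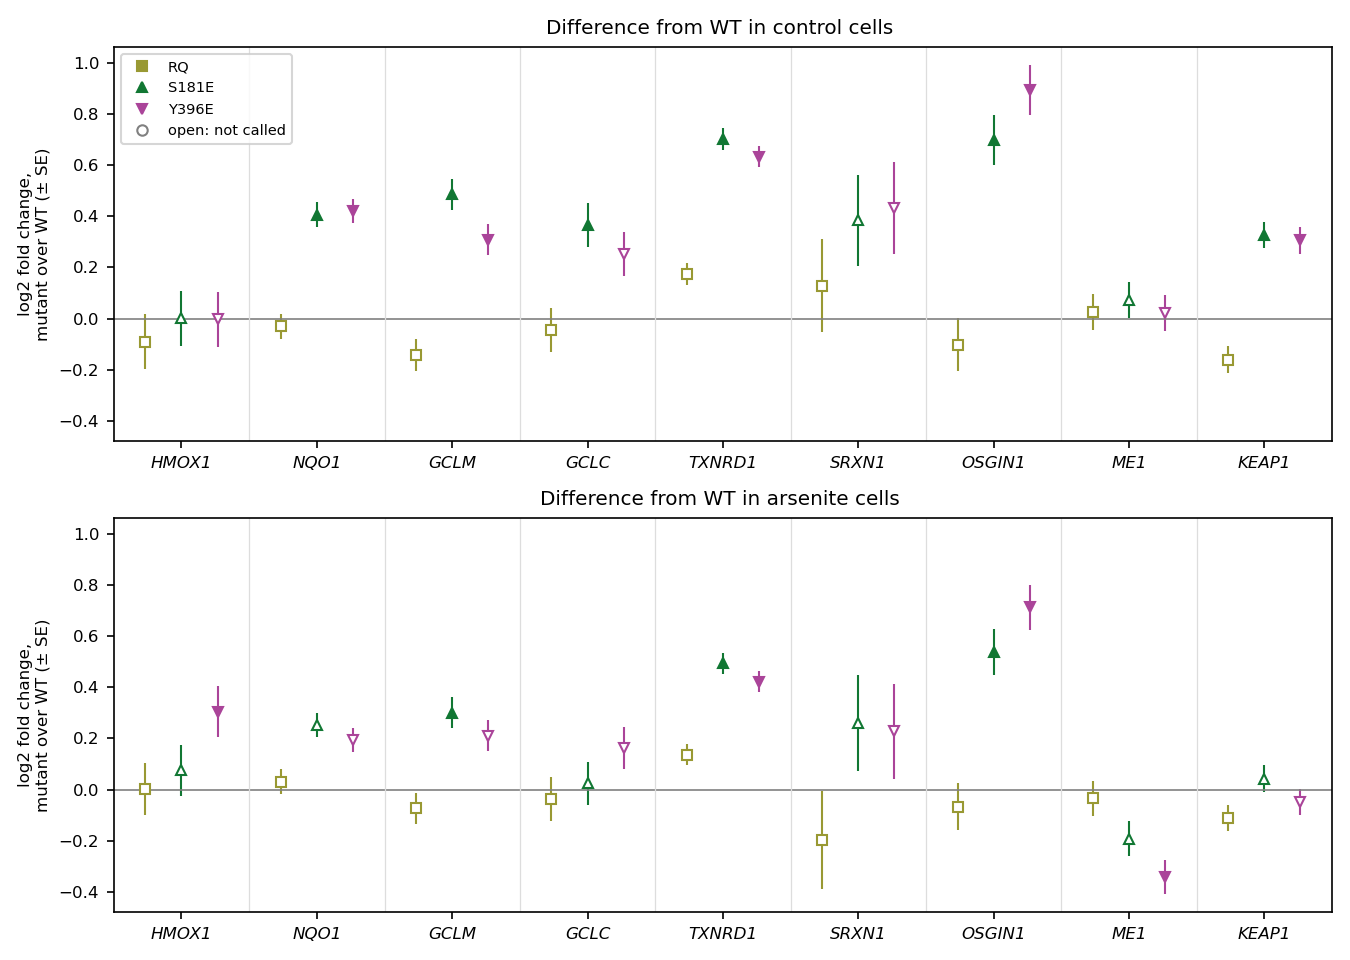
Log2 difference of each mutant population from WT with its SE, in control cells above and arsenite-treated cells below, filled where called. In control cells TXNRD1 (0.70 and 0.63), OSGIN1 (0.70 and 0.90), NQO1, GCLM and KEAP1 lie above 0 in S181E and Y396E while HMOX1 and ME1 lie near 0, the RQ points are open throughout, and the SRXN1 values come from the fit without the CPM filter.

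The third comparison set the mutants against WT after arsenite. TXNRD1 and OSGIN1 were higher in S181E and Y396E, GCLM was higher in S181E, HMOX1 was called higher in Y396E through 1 library, and ME1 was lower in Y396E. S181E had 3 members higher and 0 lower, against 5.32% and 8.42% of all genes. Y396E had 3 higher and 1 lower, against 9.77% and 11.9%. RQ had none called by edgeR or DESeq2, where 1.36% of genes were higher and 0.154% lower. In RQ an unadjusted p under 0.05 was found for 2 members and for 1020 of the 9099 tested genes. The share of calls that were higher was 38.7% in S181E and 89.9% in RQ, and 55.9% and 77.7% with library totals.

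TXNRD1 was 0.49 ± 0.0422 higher in S181E (adjusted p = 1.82e-09) and 0.42 ± 0.042 higher in Y396E (adjusted p = 2.36e-08) on the log2 scale. OSGIN1 was higher by 0.54 ± 0.0897 (adjusted p = 7.22e-05) and 0.71 ± 0.0889 (adjusted p = 9.46e-07). In both genes the lowest library of either mutant lay above the highest WT library. GCLM was higher by 0.30 ± 0.0609 in S181E (adjusted p = 0.00062) and by 0.21 ± 0.0605 in Y396E, the second under the fold threshold. The S181E call was lost at 0.25 without the first WT arsenite library. NQO1 was at 0.25 ± 0.0481 in S181E and 0.19 ± 0.048 in Y396E, with adjusted p of 0.00033 and 0.003 and under the fold threshold. NQO1 in S181E was called by DESeq2, and without the third S181E arsenite library, at 0.27.

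ME1 was lower in Y396E by a log2 difference of -0.34 ± 0.0679 (adjusted p = 0.00037), and at -0.28 ± 0.064 it stayed called without the third arsenite library. In S181E ME1 gave -0.19 ± 0.0682 (adjusted p = 0.043), under the fold threshold. HMOX1 was called higher in Y396E at 0.30 ± 0.1 (adjusted p = 0.02), and at 0.10 ± 0.0654 (adjusted p = 0.24) the call was lost without that library. It was also lost without the first or the second WT arsenite library (adjusted p of 0.051 and 0.065) and when only the compared groups were fitted (adjusted p = 0.19). KEAP1, raised in S181E and Y396E control cells, gave 0.04 ± 0.0526 and -0.05 ± 0.0523 after arsenite, and its libraries overlapped those of WT.

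After arsenite no gene was called between Y396E and S181E by edgeR (0%), where 1375 had an unadjusted p under 0.05 and DESeq2 called 9. Against RQ, S181E had 3 members higher (TXNRD1, OSGIN1 and GCLM), where 21.3% of genes were called. Y396E had 4 higher and 1 lower, where 28% were called. By mean level HMOX1 ran from 50.1 CPM in Y396E to 40.6 CPM in WT, and no neighbours in that order were called different.

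The fourth comparison tested whether the size of the arsenite response differed from that of WT, as an interaction in the same fit. KEAP1 was called in S181E (-0.28 ± 0.0744, adjusted p = 0.011) and in Y396E (-0.36 ± 0.0743, adjusted p = 0.0019), and these were its log2 fold changes minus that of WT. GCLC was called in S181E at -0.34 ± 0.12 with an adjusted p of 0.048, and ME1 in Y396E at -0.36 ± 0.0984 with an adjusted p of 0.01. Thus 2 members were called lower and 0 higher in each mutant, where 16.4% and 21.5% of all genes were called in either direction. TXNRD1 gave -0.21 ± 0.0593 and -0.21 ± 0.0593 in S181E and Y396E, and NQO1 gave -0.23 ± 0.0682 in Y396E, each with an adjusted p under 0.05 and under the fold threshold. On the adjusted p alone 3 members passed in S181E and 4 in Y396E, where 19.3% and 25.5% of all genes did. The OSGIN1 difference was -0.16 ± 0.133 in S181E and -0.18 ± 0.132 in Y396E, and that of HMOX1 was 0.07 ± 0.148 in S181E, none of which passed. For HMOX1 in Y396E it was 0.31 ± 0.148 (adjusted p = 0.12), and its Y396E arsenite libraries decided it. The value was 0.11 without the third, and it was called without the first (0.40, adjusted p = 0.045) or the second (0.41, adjusted p = 0.035). In RQ 0.22% of genes and no member were called by edgeR, no member had an unadjusted p under 0.05, DESeq2 called none, and the values ran from -0.06 to 0.09. The median response difference over the members was -0.20 in S181E and Y396E, against -0.03 and -0.02 over all genes. Of the calls over all genes 42.6% were higher in S181E and 48.1% in Y396E, and 13% and 18.2% with library totals. With those totals 6 and 4 members were called, and the share of all genes called with them is not given here. The GCLC call in S181E was lost with RLE scaling (adjusted p = 0.057), with both other filters and on leaving out any of 17 of the 24 libraries. In Y396E GCLC gave -0.09 ± 0.12, and -0.26 (adjusted p = 0.011), just under the fold threshold, without the third arsenite library. ME1 in S181E gave -0.27 ± 0.0983 (adjusted p = 0.059) and was called on leaving out any of 4 libraries, among them that Y396E library (-0.26, adjusted p = 0.017). The ME1 call in Y396E was lost when the compared groups were fitted alone (-0.36, adjusted p = 0.06). KEAP1 in S181E fell to -0.26, under the fold threshold, without the second S181E arsenite or the third S181E control library.

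The parental pair, with 1 library per treatment, gave values without a test. Ratios of arsenite to control are given with exact binomial 95% intervals, which cover counting error alone. OSGIN1 rose from 13.5 to 30.0 CPM, a ratio of 2.22 (1.98 to 2.50). ME1 went from 64.8 to 104.9 CPM (1.62, 1.53 to 1.71) and HMOX1 from 32.2 to 49.5 CPM (1.54, 1.42 to 1.67). The parental control level of HMOX1 lay above each engineered control library, the highest of which was at 22.6 CPM. NQO1 went from 393 to 485 CPM (1.23, 1.203 to 1.262), GCLC from 72.6 to 76.8 CPM (1.06, with an interval that spans 1) and GCLM from 59.9 to 51.7 CPM (0.863, 0.808 to 0.922). TXNRD1 went from 560 to 356 CPM (0.637, 0.622 to 0.652), KEAP1 from 118 to 106 CPM (0.904, 0.863 to 0.947) and SRXN1 from 6.95 to 2.81 CPM (0.404, 0.315 to 0.516). Parental control levels were 1.08 (KEAP1) to 1.51 (HMOX1) times the WT control mean, and the share of all genes above it is not given here.

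The 9 regulators of the pathway, all of them tested, split in their arsenite response. The small MAF genes, BACH1 and RBX1 fell in the 4 populations. SQSTM1 (which competes with NRF2 for KEAP1) and BTRC (part of a second ligase for NRF2) rose in all 4. CUL3 was called higher in WT and RQ, and its smaller rises in S181E and Y396E were not called. NFE2L2 itself rose in RQ. For WT, RQ, S181E and Y396E the counts were 3 higher and 5 lower, 4 and 5, 2 and 5, and 2 and 5, where 36.3% and 35.9%, 37.1% and 35.8%, 32% and 33.3%, and 32.9% and 32.9% of all genes were called, and the median log2 fold changes of the list were -0.66, -0.37, -0.62 and -0.41.

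NFE2L2 stood at 130, 126 and 129 CPM in WT control and 141, 154 and 141 CPM with arsenite (0.18, under the fold threshold), and at 136, 136 and 130 CPM and 159, 170 and 182 CPM in RQ (0.35 ± 0.0515, adjusted p = 1.04e-06). In S181E and Y396E its log2 fold changes were -0.0166 and -0.0046, and 13.1% of its exon bases are shared with another gene on the same strand. MAFG fell by 1.08 ± 0.0731 on the log2 scale in WT, from 94.6, 85.8 and 102.9 CPM to 43.6, 43.9 and 46.2 CPM. MAFF fell by 0.76 ± 0.0805 in WT and by 1.17 ± 0.0822 in S181E and 1.23 ± 0.0816 in Y396E, and the response difference was called in both (-0.41 ± 0.114 and -0.48 ± 0.114, adjusted p of 0.015 and 0.0047). MAFK fell by 0.66 ± 0.0798 and RBX1 by 0.77 ± 0.092 in WT. BACH1, the repressor, fell by 0.69 ± 0.0945 in WT and 0.37 ± 0.0952 in RQ, and by 0.94 ± 0.0934 and 1.03 ± 0.0923 in S181E and Y396E.

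CUL3 rose by 0.62 ± 0.0531 in WT and 0.73 ± 0.0534 in RQ, and its response was smaller in S181E (-0.37 ± 0.0748, adjusted p = 0.002) and Y396E (-0.41 ± 0.0748, adjusted p = 0.0007). In S181E it still went from 103.9 to 108.9 CPM in control to 122.2 to 133.4 CPM with arsenite. In Y396E it went from 97.6 to 107 CPM to 118 to 122.1 CPM. Neither rise was called, and with 1 library left out the log2 fold changes ran from 0.21 to 0.28 and from 0.17 to 0.24. SQSTM1 rose by 0.69 ± 0.0501 in WT and 0.74 ± 0.0502 in RQ, and by 0.40 ± 0.0499 and 0.48 ± 0.0498 in S181E and Y396E. The response difference was called lower for 3 of the 9 regulators in S181E (MAFF, CUL3 and SQSTM1) and 2 in Y396E, and higher for 0. Of all genes 16.4% and 21.5% were called in either direction. With 1 library left out, that of SQSTM1 in S181E ran from -0.31 to -0.24. BTRC rose by 0.80 ± 0.0717 in WT and by 0.62 to 0.85 elsewhere. In control cells BACH1 was higher than in WT by 0.46 ± 0.0915 in S181E and 0.53 ± 0.0918 in Y396E. CUL3 was called higher by 0.29 ± 0.0533 in S181E and SQSTM1 by 0.28 ± 0.0501 in Y396E. So 2 of 9 regulators were called higher and 0 lower in each, where 15.7% and 14.5% of all genes were higher. CUL3 in Y396E and SQSTM1 in S181E were not called, and sat at the fold threshold. With 1 library left out their log2 differences ran from 0.21 to 0.30 and from 0.21 to 0.28. RQ had 0 called by edgeR.

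**Figure D5:**
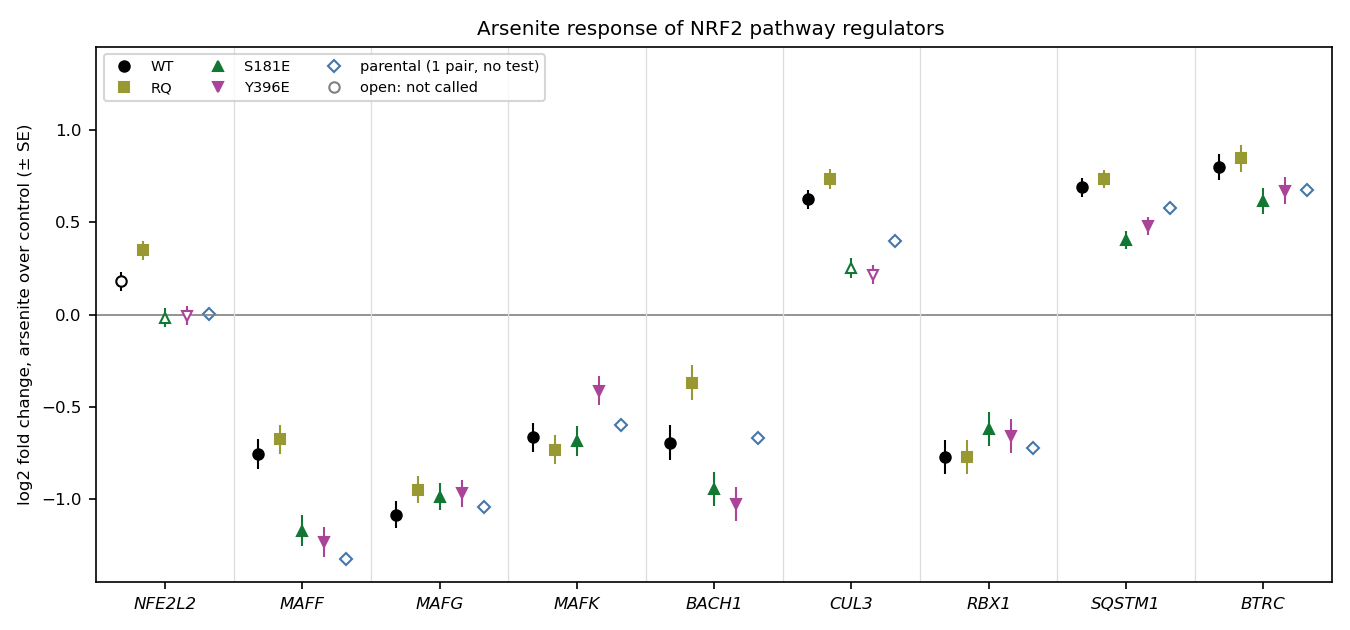
Log2 fold change of arsenite over control with its SE for the 9 regulators in each population, filled where called, and the parental ratio as an open diamond without an error. MAFF, MAFG, MAFK, BACH1 and RBX1 lie below 0 and SQSTM1, BTRC and CUL3 above 0 in the 4 populations. CUL3 is open in S181E and Y396E, and NFE2L2 is filled in RQ at 0.35.

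A wider list held 35 other NRF2 targets, of which 24 were tested. Those below the filter were ABCB6 (94.2% of its exon bases shared with another gene), AKR1B10, the near-identical AKR1C1, AKR1C2 and AKR1C3, ALDH3A1, CBR1, CBR3, GPX2, GSTM3 and TRIM16L. Arsenite raised 9 and lowered 6 in WT, raised 10 and lowered 7 in RQ, and raised 8 and lowered 8 in both S181E and Y396E. These shares lay near those of all genes, of which 36.3% were higher and 35.9% lower in WT and 32% and 33.3% in S181E. The largest rises in WT were in enzymes of the pentose phosphate route and NADPH supply: PGD (1.25 ± 0.06), TKT (1.16 ± 0.05) and IDH1 (0.99 ± 0.10). The furthest falls in WT were in the ferritin chains FTL (-0.97 ± 0.07) and FTH1 (-0.94 ± 0.06) and in MGST1 (-0.81 ± 0.07), a microsomal glutathione transferase. In S181E the leading rises were TKT (0.97), PGD (0.95) and ABCC1 (0.92), an exporter of glutathione conjugates, and the leading falls FTH1 (-0.71), TRIM16 (-0.69) and FTL (-0.65). Y396E gave PGD (0.94), TKT (0.93) and ABCC1 (0.81) above and FTH1 (-0.70), TRIM16 (-0.66) and FTL (-0.57) below. RQ gave PGD (1.27), TKT (1.25) and PIR (1.02) above and FTH1 (-0.99), MGST1 (-0.91) and FTL (-0.89) below. The median log2 fold changes of the list were 0.16, 0.16, 0.11 and 0.22 in WT, S181E, Y396E and RQ.

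In control cells 9 of these 24 genes were higher and 4 lower in S181E, and 11 higher and 4 lower in Y396E, where 15.7% and 15.4%, and 14.5% and 14.2%, of all genes were. Among the higher genes were TRIM16 (0.64 ± 0.08 and 0.67 ± 0.08) and SLC7A11, the cystine importer (0.60 ± 0.09 and 0.50 ± 0.09). MGST1 (-0.56 ± 0.07 and -0.54 ± 0.07), ABCC3 (-0.53 ± 0.09 and -0.45 ± 0.09) and FTH1 (-0.50 ± 0.06 and -0.46 ± 0.06) led the lower ones. TRIM16 shares 29.2% of its exon bases with another gene. RQ had 1 gene higher, SLC7A11 at 1.454 ± 0.09 (adjusted p = 2.38e-10), and it was also the 1 gene called after arsenite, at 1.32 ± 0.09 (adjusted p = 5.49e-10). After arsenite S181E had 4 higher and 4 lower and Y396E 7 higher and 3 lower, where 5.32% and 8.42%, and 9.77% and 11.9%, of all genes were, with FTL highest (0.63 ± 0.06 and 0.76 ± 0.06) and ABCC2 lowest in S181E (-0.43 ± 0.10) and Y396E (-0.65 ± 0.10). The arsenite response differed from WT in 4 of the 24 genes in S181E, led by TRIM16 (-0.44 ± 0.12) and MGST1 (0.36 ± 0.11), and in 7 in Y396E, led by TRIM16 (-0.40 ± 0.12) and FTL (0.40 ± 0.09), where 16.4% and 21.5% of all genes were called.

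Over the 24 engineered libraries, log2 CPM profiles grouped some members and set others apart. These correlations describe libraries that share treatment groups and carry no test. NQO1 and OSGIN1 ran together (Pearson r = 0.92), as did HMOX1 and ME1 (r = 0.88) and HMOX1 and OSGIN1 (r = 0.86). GCLM ran with KEAP1 (r = 0.77), and TXNRD1 ran against ME1 (r = -0.83) and HMOX1 (r = -0.77). Over all tested genes the profile most like HMOX1 was that of PML (r = 0.991), followed by ABCF3 (r = 0.989), and for OSGIN1 GATA2 (r = 0.987) and DDX39A (r = 0.987). ME1 was most like MCCC2 (r = 0.983) and SMCHD1 (r = 0.983), NQO1 like ANXA2 (r = 0.988) and EIF2S1 (r = 0.988), and TXNRD1 like DUSP12 (r = 0.979) and MAPK9 (r = 0.976). The nearest profiles were STRAP (r = 0.944) and KLHL21 (r = 0.932) for GCLM, RAPH1 (r = 0.942) and SBNO1 (r = 0.941) for GCLC, and RRP1B (r = 0.916) and ORC6 (r = 0.889) for KEAP1.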

How the data were processed

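Poly(A) RNA from clarified lysates was sequenced as stranded single reads, and the authors trimmed the reads, aligned them to hg38 with STAR 2.7.11b and counted them with featureCounts of Subread 2.0.6 on GENCODE 46 exons, with strand setting 2. The deposited values are raw counts per gene. Of 63086 gene identifiers, 62541 (99.136%) were given symbols and positions from GENCODE 44 on the same build. The 9 members, the 9 regulators and the 35 other targets were chosen with earlier results of these data known, and the text names all members and regulators, per comparison at most 3 called other targets that rose furthest and 3 that fell furthest, and for each tested member the 2 genes with the most similar profile. Of the other targets, 1 is counted and its own values are not reported here.

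Protein-coding genes above 10 CPM in at least 12 of the 24 engineered libraries were scaled by TMM and fitted in 1 model of 8 groups with edgeR 4.0.16 in R 4.3.3 (glmQLFit and glmQLFTest, two-sided, 16 residual degrees of freedom). A call needed a Benjamini-Hochberg adjusted p over all 9099 genes under 0.05 and a fold change above 1.2. The fit was tested on simulated data. The median SE of a log2 fold change was 0.0774, or 0.109 for a difference of responses, over totals of 22508145 to 50834401 counts. The parental pair had no replicate and entered no test. In these bulk samples fewer cells of a kind and less RNA per cell cannot be told apart. No library was a copy of another.

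Same-numbered RQ and WT libraries deviated together (correlations over genes of 0.291 to 0.525 in control and 0.147 to 0.15 with arsenite). This is a hint from the data that the numbers pair these groups, which no label states. The main fit held no pairing term, and the numbers entered only the replicate block among the alternatives below. The other sets of pairs did not all pass 0.1. Alternatives were RLE scaling, library totals, DESeq2 1.42.0, other filters and thresholds, all gene types, the compared groups alone, the parental libraries included, a replicate block and leaving out each library. Totals without mitochondrial transcripts were added after seeing the data.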

Additional observations from a re-analysis of the deposited data

Results flagged for a closer look

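In 7 cases the test of a difference in arsenite response from WT gave an adjusted p under 0.05 for a member, with edgeR's quasi-likelihood test on 3 libraries per group. That is 3 of 8 members in S181E and 4 of 8 in Y396E, where 19.3% and 25.5% of all genes passed. With the fold threshold it is 2 and 2, where 16.4% and 21.5% did. KEAP1 had a log2 response difference of -0.28 in S181E (adjusted p = 0.0111) and -0.36 in Y396E (adjusted p = 0.0019). ME1 differed by -0.36 in Y396E (adjusted p = 0.0102) and GCLC by -0.34 in S181E (adjusted p = 0.0478). NQO1 in Y396E (-0.23, adjusted p = 0.0187) and TXNRD1 in S181E (-0.21, adjusted p = 0.0171) and Y396E (-0.21, adjusted p = 0.0127) passed the adjusted p and stayed under the fold threshold. Without the third Y396E arsenite library KEAP1 gave -0.30 and ME1 -0.30 in Y396E, both still called. The ME1 call was lost with the compared groups alone (-0.36, adjusted p = 0.06), KEAP1 in S181E fell under the fold threshold at -0.26 without either of 2 S181E libraries, and GCLC was lost on leaving out any of 17 libraries. No member had an adjusted p under 0.05 for the response in RQ.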

How the results depend on the processing

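Over 117 member results, 4055 of 4186 alternative values kept their status as called or not called, 76 lost a call and 55 gained one. In 0 did a called value reverse direction. Values not called under either setting could change sign and still count among the 4055. A fold threshold of 2 left 1 member called with arsenite in WT and S181E and 2 in Y396E and RQ, and 0 in S181E and Y396E against WT in control, with arsenite and in response. With the adjusted p alone, 1 member was called in RQ control, 5 in S181E with arsenite and 4 for the Y396E response. The S181E response count of 2 became 1 with RLE scaling, 1 without the filter, 1 with filterByExpr and 6 with library totals, and ran from 0 to 3 when 1 library was left out. The Y396E response count became 4 with library totals and 1 with the compared groups alone. The cause was not tested. With the replicate block the counts were 5, 4, 5 and 6 for arsenite in WT, S181E, Y396E and RQ, 6, 5 and 0 against WT in control, 3, 4 and 0 with arsenite, and 2, 2 and 0 for responses, and it changed no member's call. In this section the member counts are not set against the share of all genes called under the same setting. Depth limits SRXN1, at 77 to 311 counts.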
